A study of Mus musculus with 6 samples.

Results

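The IGKJ genes are the joining segments of the immunoglobulin kappa light chain, and 4 of them, IGKJ1, IGKJ2, IGKJ4 and IGKJ5, were found in the B cell receptor (BCR) libraries of 2 mice. They were chosen as the first J gene that MiXCR, the program that assembled the reads, listed for each kappa clonotype, a distinct nucleotide sequence of CDR3. The iB-μMT mouse gave 1818 kappa clonotypes and the B6 mouse 1696, and all fell into these 4 groups, which are 4 of the 106 kappa V and J genes found. Of the 6 libraries of the series, 2 hold kappa chains, 1 per mouse.

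The question was whether naïve follicular (FO) B cells regenerated from pluripotent stem cells carry BCR repertoires like those of natural B cells. The iB-μMT mouse was a μMT recipient (B6.129S2-Ighmtm1Cgn/J), which lacks B cells of its own, was 8 to 10 weeks old at transplantation, and received sublethal irradiation and doxycycline in the drinking water. Its donor cells were hematopoietic progenitors (iHPCs) made in culture from an embryonic stem cell line of C57BL/6 background. That line carries GFP at Hipp11 behind the CAG promoter and a doxycycline-inducible Runx1-Hoxa9-Lhx2 cassette at Rosa26, and it came from drug-selected clones. Spleen cells were sorted 4 weeks after transplantation. The control was 1 C57BL/6 (B6) mouse, with its age not given in the sources used here and no transplantation, irradiation or doxycycline described for it. From each spleen, 100000 naïve FO B cells were sorted by surface markers, among them high IgD and CD23. GFP is not listed among the markers of this sort, and the kappa tables hold no other transcripts, so the cell type could not be checked against markers.

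In a developing B cell the kappa locus joins 1 of many V segments to 1 of the J segments, which lie side by side before the constant region. When the first kappa chain is out of frame or makes the receptor recognize self, the same allele can rearrange again. This joins another V segment, in the simplest case one further upstream, to a J segment further downstream. IGKJ1 lies first and IGKJ5 last in the row, so IGKJ5 ends the series of attempts, and IGKJ3 of the mouse is not functional. A shift of IGKJ5 clonotypes toward distant V genes is therefore one sign of repeated rearrangement. It also depends on the orientation of the V genes, which was not examined here, and repeated rearrangement itself was not tested. The J segment also supplies the end of CDR3, the loop at the centre of the antigen-binding site.

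The sequences that tell the J genes apart within CDR3 are short. The lines show the part of each untrimmed J segment that lies inside CDR3, read from clonotypes without J trimming, with the bases that differ between the genes in capitals and the shared end in lower case.
IGKJ1: GTGGacgttc
IGKJ2: TGTACacgttc
IGKJ4: ATTCacgttc
IGKJ5: GCTCacgttc
IGKJ2 has 11 bases in this part and the other genes have 10. In the RefSeq table of assembly GRCm38.p6, the same build as the mm10 named in the submitters' processing notes, IGKJ1 lies at chr6:70722562-70722599, IGKJ2 at chr6:70722916-70722954, IGKJ4 at chr6:70723548-70723585 and IGKJ5 at chr6:70723886-70723923. The start of IGKJ5 lies 1324 bases from that of IGKJ1. IGKJ3, at chr6:70723223-70723260, was the first hit of 0 clonotypes in both libraries, which allows a share of up to 0.165% of iB-μMT clonotypes and 0.177% of B6 clonotypes.

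One V gene joined to each of the J genes shows what the segment brings to the receptor. The lines give the most abundant CDR3 of IGKV6-15 with each J gene, the same in both libraries, with the J bases in capitals.
IGKV6-15 with IGKJ1: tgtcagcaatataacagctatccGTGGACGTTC
IGKV6-15 with IGKJ2: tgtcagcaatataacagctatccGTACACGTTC
IGKV6-15 with IGKJ4: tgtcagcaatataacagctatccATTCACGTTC
IGKV6-15 with IGKJ5: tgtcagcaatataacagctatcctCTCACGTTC
The 4 loops have equal length and, once translated, differ at 1 residue, which is tryptophan, tyrosine, phenylalanine and leucine in the order of the lines. As MiXCR counts it, the J segment was intact in the first and the third and had lost 1 base in the second and the fourth. In the fourth, the first 2 J bases also fit the end of the V segment. These CDR3 sequences had 1467, 7302, 3749 and 11430 reads in the iB-μMT library, and 1778, 12910, 4068 and 13285 reads in the B6 library. In both mice the IGKJ5 form was the most abundant of the 4 and the IGKJ1 form the least. The IGKV6-15 clonotypes with IGKJ2, IGKJ4 and IGKJ5 shown here were also the largest clonotypes of their J genes in both libraries. The largest IGKJ1 clonotype in both libraries was that of IGKV10-96, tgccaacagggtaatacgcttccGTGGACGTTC, with 10137 reads in the iB-μMT library and 11769 in the B6 library.

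The libraries held 562884 reads in the iB-μMT library and 534314 in the B6 library, with a median of 42 and 37 reads per clonotype. Clonotypes of a single read numbered 108 and 117. Every CDR3 was in frame, and 16 and 21 clonotypes contained a stop codon. The libraries shared 894 clonotypes with the same CDR3, V gene and J gene, which carried 91.7% of the reads of the iB-μMT library and 93.5% of those of the B6 library. Because so many clonotypes are common to both, the values of the libraries rest in large part on the same sequences. Why these were common was not tested, and the intervals between the mice treat the libraries as independent. With 1 mouse per group, differences between the mice lack a replicate check, and no test was made. The 95% intervals are over clonotypes, which are treated as independent although many share a V gene, and they cover counting error only. Shares of reads have no interval, since reads amplified without molecular identifiers do not count molecules one by one.

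IGKJ1 had the most clonotypes and IGKJ4 the fewest in both libraries. IGKJ1 had 559 clonotypes in the iB-μMT library, 30.7% of the library (95% Wilson interval 28.7 to 32.9), and 524 in the B6 library, 30.9% (28.7 to 33.1). IGKJ2 had 517 (28.4%, 26.4 to 30.6) and 460 (27.1%, 25.1 to 29.3). IGKJ4 had 292 (16.1%, 14.4 to 17.8) and 259 (15.3%, 13.6 to 17.1), which were the lowest shares in both libraries. IGKJ5 had 450 (24.8%, 22.8 to 26.8) and 453 (26.7%, 24.7 to 28.9). IGKJ4 lay below each of the others in both libraries, with intervals of the differences that excluded 0. IGKJ5 lay below IGKJ1, with differences of -5.996 percentage points in the iB-μMT library (interval -8.89 to -3.09) and -4.19 in the B6 library (-7.22 to -1.14). The neighbours IGKJ1 and IGKJ2 in the iB-μMT library, and IGKJ2 and IGKJ5 in the B6 library, did not differ beyond their intervals. These intervals between J genes treat the shares as independent. The shares are parts of the same library, so the intervals are somewhat too narrow. The intervals of the iB-μMT minus B6 difference included 0 for each J gene, and that of IGKJ5 was -1.96 percentage points (-4.85 to 0.933).

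By reads the order of the J genes changed, and IGKJ5 clonotypes had the highest median. IGKJ5 held 29.2% of the reads of the iB-μMT library and 32.1% of those of the B6 library, above its share of clonotypes in both. IGKJ1 held 31.4% and 28.5%, so that IGKJ5 ranked below IGKJ1 in the iB-μMT library and above it in the B6 library. IGKJ2 held 26.4% and 27.0%, and IGKJ4 held 12.9% and 12.4%. The median IGKJ5 clonotype had 60 reads in the iB-μMT library (interval 49 to 74), against 40 for IGKJ1 (35 to 48), 36 for IGKJ2 (30 to 43) and 35 for IGKJ4 (30 to 45). In the B6 library the medians were 48 for IGKJ5 (38 to 66), 36.5 for IGKJ1 (32 to 45), 33 for IGKJ2 (28 to 38) and 29 for IGKJ4 (24 to 40). The median of IGKJ5 exceeded that of each other J gene in both libraries, by 20 reads (6.40 to 34.9) over IGKJ1 in the iB-μMT library and by 11.5 (-1.62 to 30.1, an interval that included 0) in the B6 library. Among clonotypes not common to both mice the excess over IGKJ1 was 4 reads in the iB-μMT library and 6.5 in the B6 library. A read share reflects the number of cells, the transcript level per cell and the amplification together, and these cannot be told apart here.

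**Figure D1:**
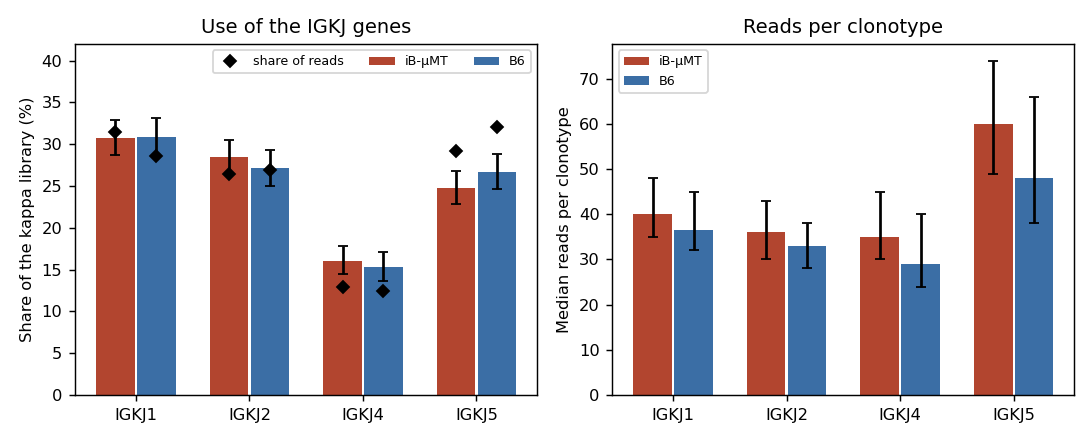
Left, share of the kappa library in percent for each IGKJ gene in the iB-μMT and B6 mice; bars are shares of clonotypes with 95% Wilson intervals and diamonds are shares of reads. Right, median reads per clonotype with 95% intervals; IGKJ4 was lowest in both libraries by clonotypes (16.1% and 15.3%), and IGKJ5 had the highest median (60 and 48 reads).

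Few clonotypes made up much of each J gene. The 10 largest held 29.4% of the IGKJ1 reads, 32.7% of the IGKJ2 reads, 34.4% of the IGKJ4 reads and 33.5% of the IGKJ5 reads in the iB-μMT library. In the B6 library they held 30.9%, 40.4%, 40.7% and 39.8%. IGKJ1 had the lowest of these shares in both libraries. It also had the most clonotypes, 559 and 524, against 292 and 259 for IGKJ4. The 10 largest are a smaller part of a larger group, so these shares do not rank the J genes by concentration. Clonotypes found in both libraries made up 51.2% of IGKJ1, 45.6% of IGKJ2, 42.1% of IGKJ4 and 55.3% of IGKJ5 clonotypes in the iB-μMT library, and 54.6%, 51.3%, 47.5% and 55.0% in the B6 library. IGKJ5 exceeded IGKJ4 by 13.2 percentage points in the iB-μMT library (5.85 to 20.4) and by 7.48 in the B6 library (-0.145 to 15.0, an interval that included 0). The common clonotypes were the larger ones, with a median of 182 reads for IGKJ5 in the iB-μMT library against 24 for IGKJ5 clonotypes not found in the other mouse.

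The position of the partner V gene was taken as the number after the dash in its name, which rises with distance from the J genes. MiXCR listed more than 1 V gene for 29.5% of iB-μMT clonotypes and 31.7% of B6 clonotypes, and the first was used. A tie in score for the first place was found in 3 and 1 clonotypes. All 102 V genes matched the RefSeq table, with IGKV3-1 nearest to the J genes, and their order there departed from the numbers at 1 neighbouring pair, IGKV4-60 and IGKV4-59. With each clonotype counted once, no pair of J genes differed in the mean position of its V partners beyond the interval of the difference. In the iB-μMT library the median V position was 57 for IGKJ1, 55 for IGKJ2, 56 for IGKJ4 and 57 for IGKJ5. In the B6 library it was 57, 57, 59 and 57. The mean position of IGKJ5 minus that of IGKJ1 was 0.614 in the iB-μMT library (interval -4.18 to 5.40) and -1.26 in the B6 library (-6.16 to 3.64). For clonotypes counted once, neither interval includes a shift of more than 6.16 positions toward either end of the locus. This bound does not cover cells or joining events, which distinct CDR3 sequences do not count. Weighted by reads, the difference was -6.03 in the iB-μMT library and -7.18 in the B6 library, without an interval.

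For a second view, V genes numbered 1 to 49 were called near, 50 to 92 middle, and 93 and above far. Far V genes made up 27.2% of IGKJ1 clonotypes in the iB-μMT library (23.7 to 31.0), 28.2% of IGKJ2 (24.5 to 32.3), 22.3% of IGKJ4 (17.9 to 27.4) and 24.4% of IGKJ5 (20.7 to 28.6). In the B6 library the shares were 31.9% (28.0 to 35.98), 27.8% (23.9 to 32.1), 27.4% (22.3 to 33.1) and 25.2% (21.4 to 29.4). The IGKJ5 minus IGKJ1 difference in the B6 library was -6.70 percentage points (-12.3 to -1.01), and that of -2.75 in the iB-μMT library had an interval that included 0 (-8.11 to 2.72). The B6 difference was the 1 of the 12 between J genes within a library whose interval excluded 0, and with zones of equal width it was -4.01, against -1.43 in the iB-μMT library.

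By reads the same direction was larger. Far V genes held 40.7% of IGKJ1 reads in the iB-μMT library and 44.9% in the B6 library. They held 34.4% and 40.3% of IGKJ2 reads, 26.8% and 33.5% of IGKJ4 reads, and 24.6% and 27.3% of IGKJ5 reads. The share was lower at each J gene further downstream in both libraries. Middle V genes moved the opposite way, from 11.6% and 9.62% of IGKJ1 reads to 24.8% and 23.5% of IGKJ5 reads. Near V genes held between 45.5% and 50.6% of the reads of every J gene in both libraries. The IGKJ5 minus IGKJ1 difference in the far share of reads was -16.1 percentage points in the iB-μMT library and -17.6 in the B6 library. It ranged from -24.2 to -10.2 and from -28.8 to -10.6 when 1 V gene at a time was left out, with IGKV17-121 and IGKV10-96 at the ends of the range in both libraries. It rested on clonotypes common to both mice, since without these it was 2.05 in the iB-μMT library and -4.38 in the B6 library.

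**Figure D2:**
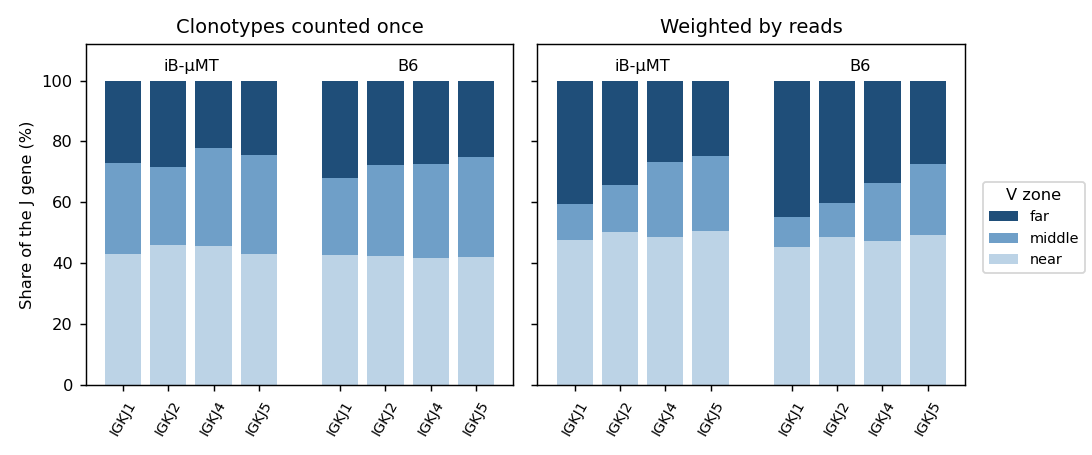
Share of each IGKJ gene in percent that was joined to near (1 to 49), middle (50 to 92) and far (93 and above) V genes, with clonotypes counted once on the left and weighted by reads on the right. The far share of reads ran from 40.7% for IGKJ1 to 24.6% for IGKJ5 in the iB-μMT library and from 44.9% to 27.3% in the B6 library, while the shares of clonotypes differed less.

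Seen from the V side, the J genes were used very unequally by single V genes, and position along the locus did not order them. Over the 37 V genes with at least 20 clonotypes in each mouse, the IGKJ1 share of a V gene's reads ran from 0.0630% (IGKV4-91) to 83.0% (IGKV13-84) in the iB-μMT library, with a median of 33.1%. In the B6 library it ran from 0.0498% to 80.6% for the same 2 genes, with a median of 31.2%. The IGKJ5 share ran from 5.71% (IGKV4-80) to 64.7% (IGKV4-55) and from 3.33% (IGKV4-80) to 86.5% (IGKV4-59), with medians of 26.3% and 28.5%. Spearman's rho between V position and the read share across these 37 genes, which share the library, was 0.0840 and 0.0268 for IGKJ1, and -0.125 and -0.126 for IGKJ5, in the iB-μMT and B6 mice. IGKJ1 led in 17 V genes in the iB-μMT library and 18 in the B6 library, IGKJ5 in 13 and 14, IGKJ2 in 5 and 5, and IGKJ4 in 2 and 0. The leading J gene was the same in both libraries for 30 of the 37 V genes.

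Over the clonotypes of both libraries combined, the V genes with the lowest IGKJ1 share were IGKV4-91, IGKV17-121 and IGKV6-13. They were also the lowest in the iB-μMT library alone, while in the B6 library IGKV6-15 (16.3% of clonotypes) lay below IGKV6-13 (19.2%). IGKV17-121 had IGKJ1 in 4 of 47 clonotypes in the iB-μMT library and 7 of 54 in the B6 library, which held 1.88% and 1.43% of its reads, while IGKJ5 held 52.9% and 52.5%. IGKV4-91 had 3 of 38 and 2 of 32 clonotypes with IGKJ1, and IGKV6-13 had 1 of 24 and 5 of 26, with 3.396% and 4.13% of reads. At the other end, IGKV1-135, among the farthest V genes, had IGKJ1 in 17 of 35 and 20 of 35 clonotypes, with 59.2% and 56.3% of its reads. IGKV13-84 had 11 of 20 and 8 of 24, and IGKV4-50 had 18 of 38 and 9 of 20. Within the iB-μMT library IGKV4-74 (47.8% of clonotypes) lay above IGKV4-50 (47.4%). Within the B6 library IGKV12-44 (48.1%) lay above IGKV4-50 (45.0%) and IGKV13-84 (33.3%). By reads IGKV4-50 had IGKJ1 at 34.6% and 30.3%, below its IGKJ2 at 41.4% and 30.8%. The far zone therefore held IGKV17-121, with IGKJ1 in few of its reads, and IGKV1-135, in which IGKJ1 led, in both libraries.

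With the libraries again combined, the V genes with the highest IGKJ5 share of clonotypes were IGKV8-19, IGKV5-48 and IGKV3-7. IGKV8-19 had IGKJ5 in 11 of 35 clonotypes in the iB-μMT library and 16 of 35 in the B6 library, with 44.1% and 51.9% of its reads, and IGKJ1 held 4.00% and 4.12%. IGKV5-48 had 9 of 28 and 8 of 22, and IGKV3-7 had 9 of 27 and 8 of 24. The order differed within single libraries, where IGKV6-20 was highest in the iB-μMT library (37.5%) and IGKV8-19 in the B6 library (45.7%), followed there by the middle genes IGKV4-59 (39.3%) and IGKV4-74 (38.5%). The lowest IGKJ5 shares over both libraries were those of IGKV3-2, IGKV13-84 and IGKV10-96, which lie in the near, middle and far zones, and in the B6 library alone IGKV4-80 was lowest. IGKV10-96 had IGKJ5 in 6 of 32 and 5 of 36 clonotypes, with 6.46% and 6.56% of its reads, against 63.6% and 57.8% for IGKJ1.

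The J use of single V genes was alike in the 2 mice by reads and less so by clonotypes. Across the 37 V genes, Pearson's r between the mice was 0.970 for the IGKJ1 share of reads, 0.548 for IGKJ2, 0.884 for IGKJ4 and 0.919 for IGKJ5. With clonotypes counted once it was 0.649, 0.0956, 0.405 and 0.419. By reads, the IGKJ1 share of a V gene lay within 10 percentage points between the mice in 34 of the 37 genes, and its median absolute difference was 3.33. The reads come mostly from clonotypes common to both mice, and among the other clonotypes r was 0.246 for IGKJ1 and -0.525 for IGKJ5.

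**Figure D3:**
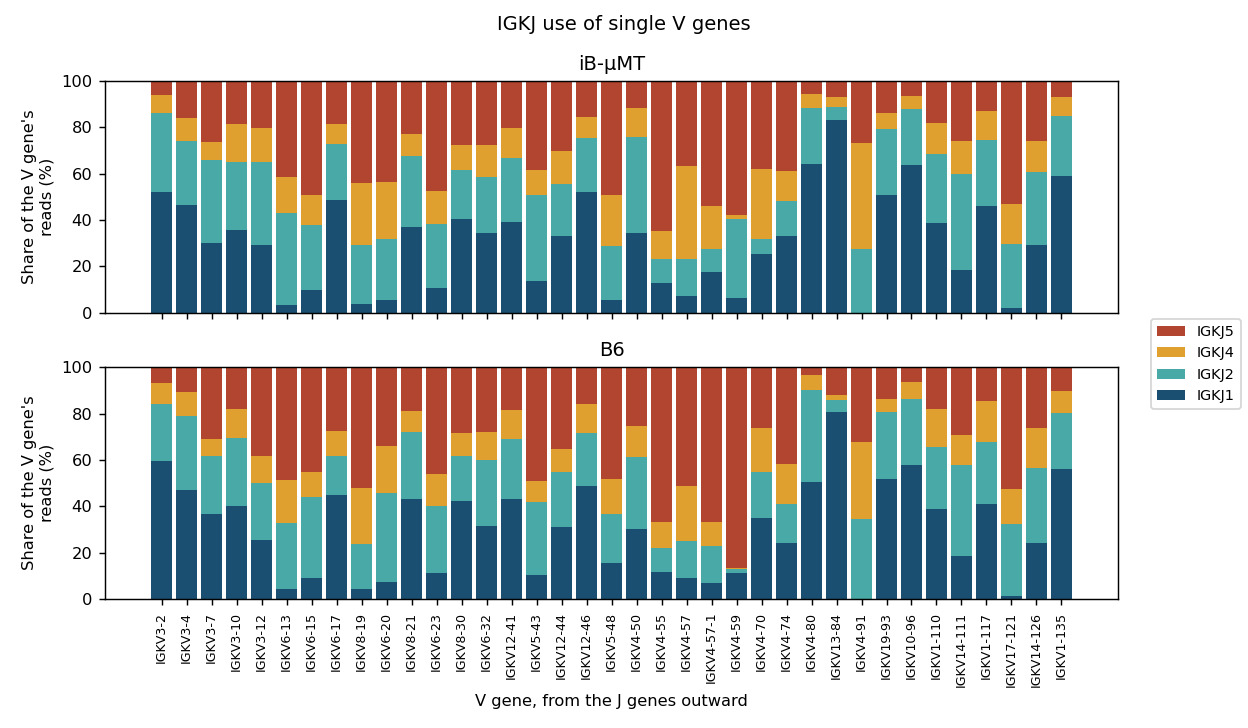
Share of each V gene's reads in percent that carried IGKJ1, IGKJ2, IGKJ4 or IGKJ5, for the 37 V genes with at least 20 clonotypes in each mouse, ordered by position from the J genes outward, iB-μMT above and B6 below. IGKV13-84 stood out with IGKJ1 (83.0% and 80.6%) and IGKV17-121 had few reads with IGKJ1 (1.88% and 1.43%), with neighbours of both kinds along the locus.

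The V genes most often joined to each J gene overlapped in part. By clonotypes, IGKV17-121, a far gene, was among the first 3 partners of IGKJ2, IGKJ4 and IGKJ5 in both libraries, with 20, 10 and 13 clonotypes in the iB-μMT library and 21, 14 and 12 in the B6 library. For IGKJ1 the first 3 were IGKV4-50 (18 clonotypes), IGKV1-135 (17) and IGKV19-93 (16) in the iB-μMT library, and IGKV1-135 (20), IGKV19-93 (20) and IGKV10-96 (16) in the B6 library. IGKV6-15 was among the first 3 of IGKJ2 in both libraries (15 and 19 clonotypes), of IGKJ5 in the iB-μMT library (11) and of IGKJ4 in the B6 library (8). IGKV6-23 was among those of IGKJ2 in both libraries (15 and 16) and of IGKJ4 in the B6 library (9). The others were IGKV4-91 (16) and IGKV19-93 and IGKV6-17 (9 each) for IGKJ4 and IGKV4-57 and IGKV8-19 (11 each, tied with IGKV6-15) for IGKJ5 in the iB-μMT library, and IGKV8-19 (16) and IGKV4-55 (12) for IGKJ5 in the B6 library. Over all 102 V genes the profile of clonotypes of IGKJ1 was least like that of IGKJ4, with Pearson's r of 0.452 in the iB-μMT library and 0.503 in the B6 library, against 0.586 and 0.646 with IGKJ5. By reads IGKJ1 was least like IGKJ5, with r of 0.229 and 0.196. The read profiles of IGKJ4 and IGKJ5 had r of 0.843 and 0.856, and the read profile of each J gene in one mouse against the same J gene in the other had r from 0.891 to 0.972.

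The ends of the V segments were examined beside these shares, a comparison chosen after the values were seen. For the 37 V genes with at least 20 clonotypes in each mouse, the V part was read from clonotypes of both libraries without V trimming. The most frequent one was taken. This part was found in 9 of 19 such clonotypes for IGKV8-19 and 16 of 30 for IGKV17-121, so these calls hold differing sequences. It was found in 22 of 26 for IGKV6-15, 14 of 17 for IGKV6-23, 8 of 8 for IGKV13-84 and 28 of 30 for IGKV10-96. The lines give this part of CDR3, with its last 4 bases in capitals, for V genes with a low and with a high share of IGKJ1.
IGKV6-15: tgtcagcaatataacagctatcCTCT
IGKV6-23: tgtcagcaatatagcagctatcCTCT
IGKV17-121: tgtttgcaaagtgataacttgcCTCT
IGKV8-19: tgtcagaatgatcatagttatcCTCC
IGKV13-84: tgtcaacagtattggagtactcCTCC
IGKV10-96: tgccaacagggtaatacgctTCCT
The 3 V genes ending in CTCT had IGKJ1 in 1.88% to 10.7% of reads in the iB-μMT library and in 1.43% to 11.2% in the B6 library, and IGKJ5 in 47.5% to 52.9% and 45.2% to 52.5%. The 16 V genes ending in CTCC spanned 4.00% to 83.0% and 4.12% to 80.6% for IGKJ1. They spanned 6.02% to 44.1% and 6.99% to 51.9% for IGKJ5. The 5 V genes ending in CCCA had IGKJ1 in 6.56% to 33.1% and 8.83% to 34.8% of reads and IGKJ5 in 36.6% to 64.7% and 26.4% to 86.5%. IGKV8-19 and IGKV13-84, with the same last 4 bases, lay at the ends of the IGKJ1 range. The part of the V end in these shares was not tested.

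In the junctions found, all of them in frame, the J genes lacked different numbers of bases at their 5′ ends. IGKJ4 was the least trimmed. It was intact in 69.9% of its clonotypes in the iB-μMT library (64.4 to 74.8) and 66.0% in the B6 library (60.1 to 71.5), with means of 0.750 and 0.707 bases lost. IGKJ1 was intact in 39.7% (35.7 to 43.8) and 41.6% (37.5 to 45.9), with means of 1.503 and 1.42. IGKJ2 was intact in 38.7% (34.6 to 43.0) and 32.2% (28.1 to 36.6), with means of 1.29 and 1.44, and IGKJ5 in 45.6% (41.0 to 50.2) and 42.6% (38.1 to 47.2), with means of 1.17 and 1.27. The difference of IGKJ4 from IGKJ1 was -0.753 bases in the iB-μMT library (-0.961 to -0.545) and -0.713 in the B6 library (-0.905 to -0.522). Trimming differed little between the mice, and the intervals of the iB-μMT minus B6 difference included 0 for each J gene.

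By reads, the distribution of losses differed between the genes. IGKJ4 was intact in 92.99% of its reads in the iB-μMT library and 95.7% in the B6 library. IGKJ2, the longer segment, had lost exactly 1 base in 77.2% and 81.5% of its reads and was intact in 11.01% and 7.17%. IGKJ1 was intact in 58.6% and 59.3% and had lost 2 bases in 24.7% and 22.8% and 3 bases in 13.8% and 14.9%. IGKJ5 was intact in 50.8% and 49.4% and had lost 1 base in 34.9% and 37.8%. The loss of 1 base was thus the commonest form of IGKJ2 and rare for IGKJ1, at 2.32% and 2.41% of its reads. Only junctions in frame were seen, and most reads had a CDR3 of 11 residues. IGKJ2 has 11 bases inside CDR3 and the other genes have 10. Its loss of 1 base therefore cannot be told apart from the limits set by frame and length.

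These losses depend on how bases that fit both segments are assigned. In 29.3% of IGKJ5 clonotypes of the iB-μMT library and 33.6% of those of the B6 library, the last V bases and the first remaining J bases were the same letters, which MiXCR counts to both. The share was 7.69% and 7.82% for IGKJ1, 13.2% and 14.6% for IGKJ2, and 18.8% and 17.4% for IGKJ4. With such bases counted to the V segment alone, the mean loss of IGKJ5 was 1.76 bases in the iB-μMT library and 1.94 in the B6 library, above the 1.61 and 1.53 of IGKJ1, so the order of IGKJ1 and IGKJ5 turned. IGKJ4 was still lowest, at 1.11 and 1.02, with IGKJ2 at 1.51 and 1.72.

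**Figure D4:**
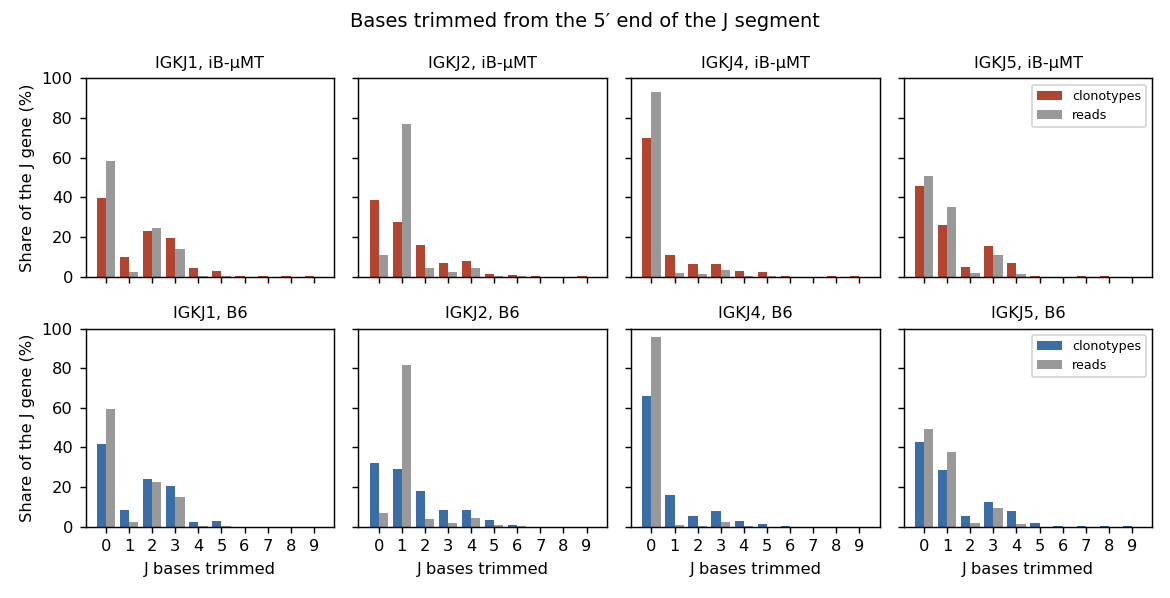
Bases trimmed from the 5′ end of the J segment (x axis) against the share of each IGKJ gene in percent, for clonotypes (coloured) and reads (grey), iB-μMT above and B6 below. IGKJ4 was mostly intact (92.99% and 95.7% of reads) and IGKJ2 had mostly lost 1 base (77.2% and 81.5% of reads).

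The residue before threonine and phenylalanine at the end of CDR3 is the first that an untrimmed J segment encodes in full. After J trimming, other bases can encode it in whole or in part. It followed the J gene but was conserved to different degrees. Tryptophan headed 48.1% of productive IGKJ1 clonotypes in the iB-μMT library (44.0 to 52.3) and 46.9% in the B6 library (42.6 to 51.2). Tyrosine headed 81.6% of IGKJ2 (78.0 to 84.7) and 78.6% (74.7 to 82.2), phenylalanine 79.7% of IGKJ4 (74.7 to 83.9) and 81.5% (76.3 to 85.8), and leucine 71.4% of IGKJ5 (67.1 to 75.4) and 69.1% (64.6 to 73.2). IGKJ5 exceeded IGKJ1 by 23.3 percentage points in the iB-μMT library (17.3 to 29.1) and by 22.2 in the B6 library (15.97 to 28.1). By reads the shares were 60.5% and 61.3% for tryptophan, 92.6% and 92.8% for tyrosine, 94.6% and 96.7% for phenylalanine and 85.7% and 87.0% for leucine. IGKJ1 was the most variable of the 4 at this residue under both ways of counting.

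Arginine and proline were the commonest replacements in IGKJ1. It carried arginine in 22.2% of clonotypes in the iB-μMT library and 23.8% in the B6 library, and proline in 18.4% and 18.8%. IGKJ1 clonotypes were 95.3% and 93.2% of all kappa clonotypes with arginine at this place, 123 of 129 and 123 of 132. IGKJ5 carried proline in 18.3% and 17.3%, IGKJ2 proline in 7.25% and 8.50% and histidine in 6.86% and 8.06%, and IGKJ4 proline in 6.87% and 6.30%. Tryptophan at this place was found with IGKJ1 in 266 of 266 and 242 of 243 clonotypes, and tyrosine with IGKJ2 in 416 of 426 and 361 of 371.

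The amount of J trimming differed between these forms. IGKJ1 clonotypes with tryptophan had lost 0.207 bases on average in the iB-μMT library and 0.174 in the B6 library, those with arginine 1.93 and 1.95, and those with proline 3.39 and 3.33. The lines show the most abundant IGKJ1 junction of IGKV10-96 for each of these residues, the same in both libraries, with the remaining J bases in capitals.
tryptophan form: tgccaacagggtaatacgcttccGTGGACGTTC
arginine form: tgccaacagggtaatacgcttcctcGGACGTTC
proline form: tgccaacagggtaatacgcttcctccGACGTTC
All have 11 residues, and the loss of J bases was made up by the same number of bases ahead of them, the V base trimmed in the first form included. They had 10137, 3457 and 2115 reads in the iB-μMT library and 11769, 3668 and 2182 in the B6 library, which keeps the same order. Of the reads of this V-J pair, the tryptophan residue took 64.1% and 65.3%, arginine 22.3% and 21.3%, and proline 13.5% and 13.3%.

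**Figure D5:**
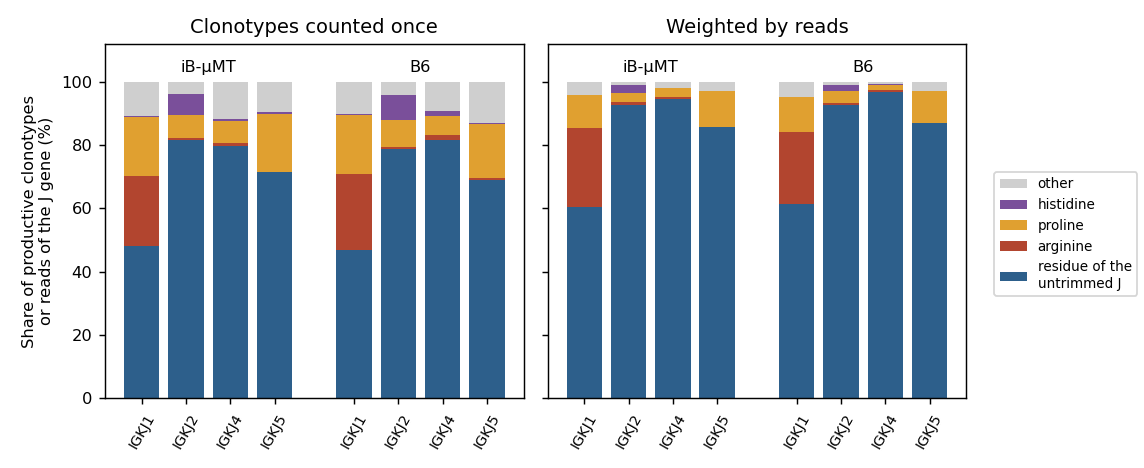
Share in percent of productive clonotypes (left) or reads (right) of each IGKJ gene by the residue at the place of the first J residue, whichever bases encode it. Blue marks the residue of the untrimmed segment (tryptophan for IGKJ1, tyrosine for IGKJ2, phenylalanine for IGKJ4, leucine for IGKJ5). IGKJ1 kept its own residue in 48.1% and 46.9% of clonotypes and carried arginine in 22.2% and 23.8%.

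By reads, CDR3 was mostly 11 residues long with every J gene. This length was found in 84.5% of IGKJ1 reads, 83.7% of IGKJ2, 88.3% of IGKJ4 and 88.1% of IGKJ5 reads in the iB-μMT library, and in 87.5%, 88.2%, 91.96% and 92.9% in the B6 library. With clonotypes counted once it was less frequent, at 49.9%, 40.4%, 45.9% and 52.4% for IGKJ1, IGKJ2, IGKJ4 and IGKJ5 in the iB-μMT library and 54.0%, 45.9%, 55.2% and 55.0% in the B6 library. By clonotypes, IGKJ2 had the highest mean length, with means of 11.2 residues in the iB-μMT library and 11.1 in the B6 library against 10.8 and 10.9 for IGKJ1. The difference was 0.403 residues (0.287 to 0.520) and 0.253 (0.139 to 0.368). From IGKJ4 it was not separated in the B6 library, where IGKJ4 minus IGKJ2 was -0.0718 (-0.219 to 0.0754), against -0.300 (-0.450 to -0.151) in the iB-μMT library. CDR3 of 12 or more residues made up 36.9% of IGKJ2 clonotypes (32.9 to 41.2) and 29.1% (25.2 to 33.4), but 5.46% and 3.28% of IGKJ2 reads. The corresponding shares of IGKJ1 clonotypes were 18.6% and 16.2%. Mean CDR3 length of IGKJ2 was the 1 measure of 36 compared per J gene between the mice whose interval excluded 0. It was 0.139 residues more in the iB-μMT library (0.0116 to 0.267), and these intervals were not adjusted for the 36 comparisons. Weighted by reads, the mean length of IGKJ2 was 10.955 in the iB-μMT library and 10.956 in the B6 library, so the mice hardly differed. By reads IGKJ2 was also not the longest, since IGKJ4 had means of 10.962 and 10.985.

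Most junctions had no bases between the V and J segments as MiXCR bounds them. The share was 83.5% for IGKJ1, 83.4% for IGKJ2, 80.5% for IGKJ4 and 78.2% for IGKJ5 in the iB-μMT library, and 82.6%, 82.6%, 74.5% and 79.2% in the B6 library. By reads it was 93.05%, 96.6%, 97.5% and 96.4%, and 91.6%, 96.9%, 97.3% and 96.0%, so IGKJ1 was lowest by reads in both libraries. Palindromic bases at the J end are counted to the J segment, so they are not among the inserted bases. Such bases beyond the V end were found in 13.1% of IGKJ1, 25.5% of IGKJ2, 23.6% of IGKJ4 and 9.33% of IGKJ5 clonotypes in the iB-μMT library. In the B6 library the shares were 14.3%, 20.7%, 17.8% and 7.06%. By reads the largest was 2.96%, for IGKJ2 in the iB-μMT library. In the arginine and proline forms of IGKV10-96 above, MiXCR ended the V segment at TCCT and counted the next 1 and 2 bases, c and cc, as inserted. Whether the germline V segment ends there was not checked, so the V end, V trimming and inserted bases given for IGKV10-96 are those of MiXCR's reference. The same limit holds for the other V genes, whose untrimmed CDR3 parts differed in length. That of IGKV4-57-1 had 19 bases, that of IGKV8-21 had 23, and those of IGKV4-70 and IGKV4-80 had 24, against 28 for IGKV4-55. IGKV4-70 and IGKV4-55 are both among the V genes ending in CCCA. V ends were read only for the 37 V genes with at least 20 clonotypes in each mouse. Of these, 4 ended in TCCT (IGKV1-110, IGKV1-117, IGKV10-96 and IGKV6-13). Without those 4, the share of reads without inserted bases was 97.9% and 97.4% for IGKJ1, against 96.6% and 96.5% for IGKJ5.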

How the data were processed

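Kappa chain libraries of sorted naïve FO B cells from 1 iB-μMT mouse and 1 B6 mouse were used; the heavy and lambda chain libraries were not used here. The authors amplified cDNA ends, sequenced on an Illumina MiSeq (bcl2fastq, mm10 per the labels) and assembled clonotypes with MiXCR (version 3.0.13). The deposited tables give each clonotype a count of reads and its fraction of all reads in that library. Counts were used as deposited, and the aligner's settings are not given in the sources used here.

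Clonotypes were grouped by first J hit, with V and J the best hits, and trimming was taken from MiXCR's reference points. Shares have 95% Wilson intervals, differences of shares square-and-add (Newcombe) intervals for independent sets, means 1.96 standard errors, and medians order statistics. Positions within the J row and V order came from RefSeq (GRCm38.p6). Named V genes were the 3 with most clonotypes for each J gene in each library and, among those with at least 20 clonotypes in each, the 3 highest and 3 lowest for IGKJ1 and IGKJ5 by share of the clonotypes of both libraries combined; the others are given as ends of a range or were chosen after their values were seen. The members and lists were chosen with earlier results of these data known. The computations were tested on simulated data with pandas 2.3.3, NumPy 2.4.6 and SciPy 1.17.1 under Python 3.11.15. Alternatives were clonotypes with at least 2 or 5 reads, equal read numbers, leaving out common clonotypes, merging clonotypes 1 mismatch from one with at least 10 times the reads, productive clonotypes, unique best hits, weighting by reads, other zones and V order, and 4 added after seeing the data.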

Additional observations from a re-analysis of the deposited data

Results flagged for a closer look

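The mean V position of IGKJ5 minus that of IGKJ1 had opposite signs in the libraries, 0.614 in the iB-μMT library and -1.26 in the B6 library. The difference between the mice was not tested, since each group has 1 mouse, and both intervals included 0. Weighted by reads, both values were negative, at -6.03 and -7.18.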

How the results depend on the processing

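For the IGKJ5 minus IGKJ1 differences and the iB-μMT minus B6 shares, 202 of 224 values under the alternatives stayed within the 95% interval of the reported value, the read-based far share being held to the interval of its clonotype counterpart. Weighting by reads moved the IGKJ5 minus IGKJ1 share to -2.23 percentage points in the iB-μMT library and turned it to 3.51 in the B6 library, and the IGKJ1 difference between the mice to 2.91. It gave V positions of -6.03 and -7.18, far V shares of -16.1 and -17.6, shares without inserted bases of 3.39 (turned) and 4.42, and -2.16 for clonotypes common to both mice in the iB-μMT library. Without clonotypes common to both mice, the far share of reads was 2.05 (turned) in the iB-μMT library and -4.38 in the B6 library, J trimming was 0.104 bases in the B6 library, the share of the commonest first residue differed by 16.1 and 13.7, and the median reads by 4.00 in the iB-μMT library. Zones of equal width gave far shares of reads of -8.47 and -10.7, and leaving out IGKV17-121, chosen after seeing the data, gave -24.2 and -28.8. Bases matching both segments, counted to V (also chosen after seeing the data), gave trimming differences of 0.154 (turned) and 0.416 bases. Where no value above shows it, the cause was not tested. For single J genes, 615 of 744 values stayed within their intervals.

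Of what was planned, V orientation was not run, because the gene table used here gives no strand. No paired analysis was possible because there was 1 mouse per group. Precision is set by the number of clonotypes, 259 at the lowest, not by reads, and rearrangements out of frame could not be counted.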
